A study of Homo sapiens with 18 samples.

Results

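The regulators of apoptosis described here are 10 genes of the BCL2 family, taken as the rows of the RNA-Seq tables whose gene ID matches them, and all 10 of them were found among 23604 listed genes. They were the anti-apoptotic MCL1, BCL2L1 (BCL-xL) and BCL2L2 (BCL-w), the effectors BAX and BAK1 (BAK), and the BH3-only BID, BAD, BBC3 (PUMA), PMAIP1 (NOXA) and BCL2L11 (BIM). The BCL2 family decides whether the outer membrane of the mitochondrion stays closed or is opened, the step that releases cytochrome c and starts the caspases. Anti-apoptotic members hold the effectors in check, the effectors form pores in the membrane, and BH3-only members sense damage or stress and either block the anti-apoptotic members or activate the effectors. MCF10A-ErSrc is an established breast epithelial cell line that carries a v-Src kinase fused to the oestrogen receptor, so that tamoxifen switches the kinase on and transforms the cells. Triptolide (TPL) is a plant diterpenoid that inhibits transcription, and its target is XPB, a subunit of the general transcription factor TFIIH.

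The 8 RNA-Seq libraries came from MCF10A-ErSrc cells that were not treated with tamoxifen (NT) or were transformed with 2 µM tamoxifen (TAM). Both kinds of cells then received DMSO or TPL for 4 h (NT + TPL, TAM + TPL), with 2 independent biological replicates per group, per the study's methods. NT and TAM cells are the same line and differ by tamoxifen, so the v-Src protein and the drug that activates it cannot be told apart. A list of RNA polymerase II (RNAPII) ChIP-Seq peaks that hold a transcription start site (TSS) was deposited for each of the 4 conditions.

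The libraries held between 7461309 and 8349448 expected counts, which are RSEM's estimates of reads per gene. All 8 markers of breast epithelium were listed in every library. Their summed level was 13376 and 15078 FPKM (read numbers scaled to transcript length and library size) in NT cells, 9645 and 11855 in NT + TPL cells, 3631 and 3869 in TAM cells and 2054 and 2229 in TAM + TPL cells. Most of this sum was KRT17 and KRT5, at means of 6714 and 6013 FPKM in NT cells and 1481 and 1308 in TAM cells, and not every marker of the list was lower in TAM cells. EPCAM was at 24.6 FPKM in NT and 39.3 in TAM cells, and KRT18 at 410.2 and 453.7. Their part in the differences between NT and TAM cells was not tested. Of 4 blood cell markers 3 were listed, and they summed to between 7.19 and 19.9 FPKM in a library, with the highest values in NT + TPL. Most of this sum was CD14, at means of 10.1 FPKM in NT and 16.9 in NT + TPL cells. PTPRC was at 0.46 and 1.43 in these groups, and CD3E at 0 and 0.085. The 4 fibroblast markers summed to between 4.19 and 12.8 FPKM, and in most libraries 1 or 2 of them were at 0. All values are relative to the total mRNA reads of a library, so an amount of RNA per cell is not measured by them, and fewer cells with a transcript cannot be told apart from less of it per cell.

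The promoters of the 5 members on which the results turn are printed first. MCL1 had the widest RNAPII peak, BCL2L1 and BAK1 were lower with TPL, and PMAIP1 and BCL2L11 were higher. Each sequence runs from 250 bases before the main TSS to the first transcribed base, 5′ to 3′ on the strand of the gene, in build GRCh37 (hg19). Capitals mark the GC box, which reads GGGCGG and appears as its reverse complement where it lies on the opposite strand. They also mark the CCAAT box and the CRE half-site, the latter spelled TGACG, on either strand.
The MCL1 promoter lies on the minus strand at chr1:150552086-150552336, the BCL2L1 promoter on the minus strand at chr20:30310671-30310921 and the BAK1 promoter on the minus strand at chr6:33548053-33548303. Those of PMAIP1 and BCL2L11 lie on the plus strand at chr18:57566978-57567228 and chr2:111878241-111878491.
MCL1: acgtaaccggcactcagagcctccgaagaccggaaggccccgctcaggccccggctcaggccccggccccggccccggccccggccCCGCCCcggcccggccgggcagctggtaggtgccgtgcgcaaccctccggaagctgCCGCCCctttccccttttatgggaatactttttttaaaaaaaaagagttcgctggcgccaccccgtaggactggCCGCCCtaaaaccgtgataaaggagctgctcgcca
BCL2L1: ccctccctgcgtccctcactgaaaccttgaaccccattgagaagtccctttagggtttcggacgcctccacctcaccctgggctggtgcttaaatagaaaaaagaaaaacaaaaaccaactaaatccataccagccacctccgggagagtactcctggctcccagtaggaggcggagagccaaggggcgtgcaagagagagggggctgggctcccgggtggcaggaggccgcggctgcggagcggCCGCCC
BAK1: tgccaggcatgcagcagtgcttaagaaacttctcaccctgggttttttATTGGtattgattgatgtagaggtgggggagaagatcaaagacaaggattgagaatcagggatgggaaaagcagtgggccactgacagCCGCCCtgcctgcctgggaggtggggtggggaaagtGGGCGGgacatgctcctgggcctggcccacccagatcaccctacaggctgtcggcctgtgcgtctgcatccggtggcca
PMAIP1: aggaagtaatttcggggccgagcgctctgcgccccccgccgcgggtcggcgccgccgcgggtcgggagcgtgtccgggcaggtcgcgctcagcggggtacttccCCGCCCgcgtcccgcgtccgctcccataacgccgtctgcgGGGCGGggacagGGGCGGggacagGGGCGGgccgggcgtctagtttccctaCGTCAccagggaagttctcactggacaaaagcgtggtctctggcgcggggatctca
BCL2L11: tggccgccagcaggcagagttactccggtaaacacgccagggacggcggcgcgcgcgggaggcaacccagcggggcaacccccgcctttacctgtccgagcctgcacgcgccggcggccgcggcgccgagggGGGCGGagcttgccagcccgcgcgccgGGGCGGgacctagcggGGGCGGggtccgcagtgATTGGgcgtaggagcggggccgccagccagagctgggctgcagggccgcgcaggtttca
Searched over the window from 250 bases before to 50 bases after the TSS, all 10 members held a GC box on either strand, as did 66.6% of 16728 promoters of protein-coding genes. None of the 10 held the TATA box letters TATAAA, which 7.74% of those promoters held. A CCAAT box was found in BAX, BAK1, BAD and BCL2L11 (35.7% of promoters) and the CRE half-site in BAX, BAD, BBC3 and PMAIP1 (30.9%). The E-box CACGTG stood in BAX alone among the members, in 4 copies, the first of which overlaps the CRE half-site (9.19% of promoters). MCL1 carried 3 GC boxes, PMAIP1 4 of them with 1 CRE half-site 55 to 51 bases before the TSS, BCL2L11 3 of them with 1 CCAAT box, and BAK1 2 of them with 2 CCAAT boxes, of which 1 lies after the TSS. The single GC box of BCL2L1 runs over its TSS. These are matches of letters and no measure of binding.

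The mRNA levels of the family were led by MCL1 in all 8 libraries, whether or not the cells were transformed or received TPL. In NT cells MCL1 stood at 199 ± 13.9 FPKM, followed by BAX at 47.5 ± 8.91, BAD at 38.5 ± 7.15, BAK1 at 20.8 ± 1.99 and BID at 12.3 ± 0.813 (SD, n = 2 each). BAX and BAD did not differ beyond their spread. Below them, BCL2L11 (8.11 ± 1.46) and PMAIP1 (7.73 ± 0.0566) overlapped, BCL2L2 (5.76 ± 1.27) lay below both in its 2 libraries, and BBC3 was lowest at 2.34 ± 0.863 (SD, n = 2 each). With TPL, PMAIP1 moved to the second place, at 57.7 ± 3.78 FPKM in NT + TPL cells and 59.6 ± 2.79 in TAM + TPL cells. In NT + TPL cells it stood beside BAD at 55.6 ± 0.177, from which it did not differ beyond the spread. BCL2L1 is left out of this order because its reads are divided over several entries, as described with its values.

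**Figure D1:**
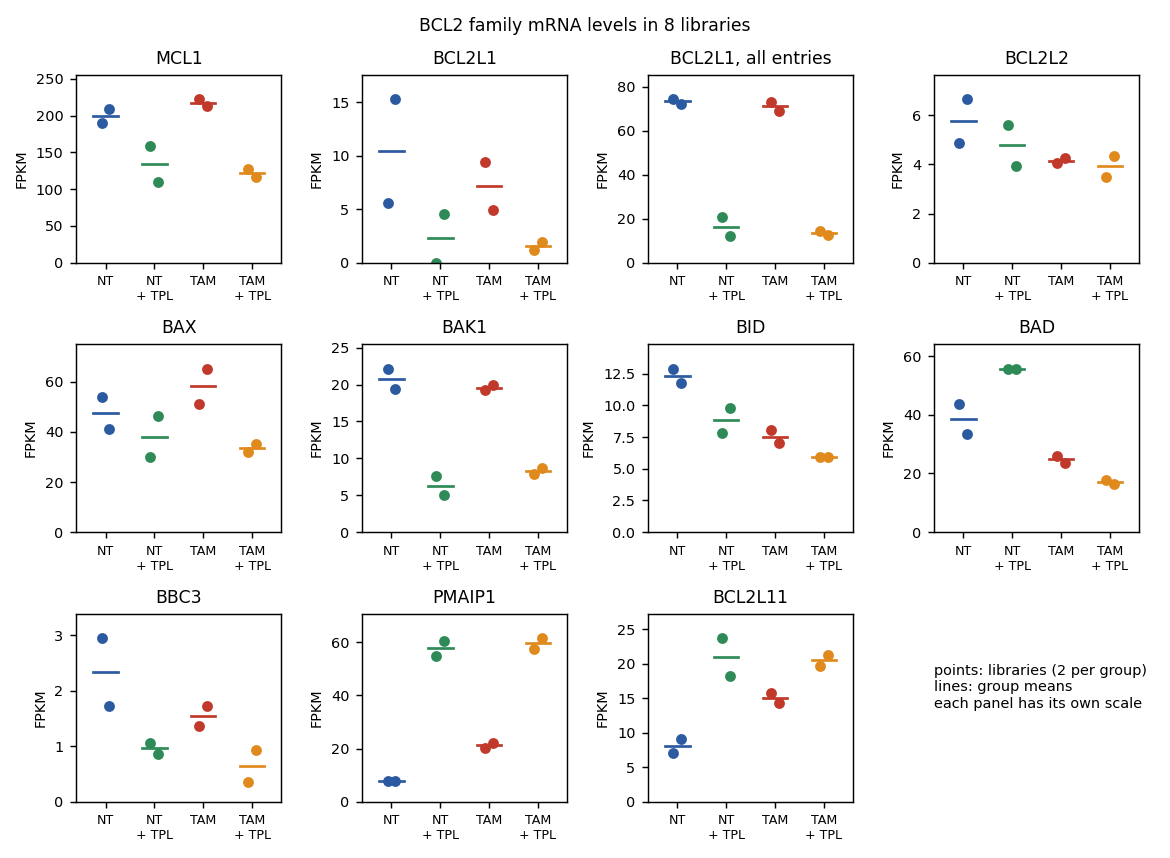
FPKM (y axis, a linear scale from 0 that differs between panels) of the 10 members in each of the 8 libraries (points, 2 per group) with the group mean (line), and of BCL2L1 summed over its 5 deposited entries. PMAIP1 lies between 55.0 and 61.6 FPKM in the 4 TPL libraries and between 7.69 and 22.2 in the 4 DMSO libraries, while BAK1 lies between 5.08 and 8.71 with TPL and between 19.3 and 22.2 with DMSO.

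To see how TPL moved the members, rounded expected counts were tested with edgeR's quasi-likelihood test in a single fit of the 4 groups over 16948 genes, with Benjamini-Hochberg adjustment. To be called, a gene needed an adjusted p no higher than 0.001 and a log2 fold change no smaller than 1.2 in size, the thresholds of the study's methods. With its own analysis the study reported larger shares of genes higher and lower with TPL than this fit called. A member not called here may therefore have passed there. In NT cells with TPL, 1 of the 10 members was called higher (PMAIP1), where 1.22% of all genes tested were, and 0 were called lower (2.71%). At an unadjusted p under 0.05 3 members were lower in NT + TPL cells (MCL1, BAK1 and BID, 24.1% of all genes) and 3 were higher (BAD, PMAIP1 and BCL2L11, 23.7%). DESeq2, run over 23529 genes with a count in each comparison, called 1 of the 3 that were lower, BAK1. Of the 3 that were higher it called 2, PMAIP1 and BCL2L11. Of all genes it called 2506 there in either direction. In TAM cells with TPL, 1 was called higher (PMAIP1 again, 0.844% of all genes) and 0 lower (2.04%), while at an unadjusted p under 0.05 4 were lower (MCL1, BAX, BAK1 and BAD, 24% of all genes) and 1 was higher (PMAIP1, 21%). Among those lower DESeq2 called 1, again BAK1, and it called PMAIP1 higher. Of the 23529 genes it called 2252 there in either direction. At an adjusted p of 0.05 with no limit of size, PMAIP1 and BCL2L11 were higher (17.2% of all genes) and BAK1 lower (19.8%) in NT + TPL cells. In TAM + TPL cells PMAIP1 was higher (14.3%) and MCL1, BAK1 and BAD were lower (18.6%) by the same test. The median log2 fold change of the 10 members was -0.39 in NT and -0.68 in TAM cells, and over all genes it was 0.09 and 0.05.
By level alone, both TPL libraries lay below both DMSO libraries for 5 members in NT cells (32.7% of all genes) and above them for 3 members (36.4%). In TAM cells 7 members lay below (34.7%) and 2 above (40%). BCL2L2 was the member whose groups overlapped in both kinds of cells.

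**Figure D2:**
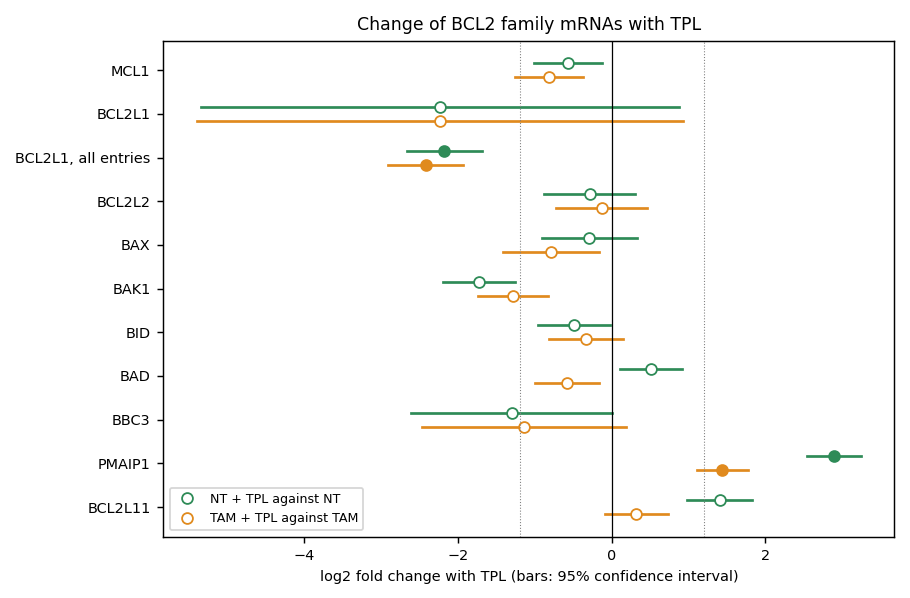
Fitted log2 fold change with TPL (x axis) of each member, and of BCL2L1 with its 5 entries summed, in NT cells (green) and TAM cells (orange), with 95% confidence intervals. Filled points are called, and dotted lines mark a log2 fold change of 1.2 in either direction. The points of BCL2L1 with its entries summed come from the fit with all entries of a gene summed, and all other points from the fit of 16948 genes. The summed fit also called BAK1 lower in both kinds of cells and BCL2L11 higher in NT cells, which are drawn open here. PMAIP1 is called higher at 2.89 in NT and 1.44 in TAM cells, and BCL2L1 is called lower at -2.18 and -2.42 with its entries summed.

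Among the anti-apoptotic members, BCL2L1 with its entries summed had the largest fall. MCL1, which binds BAK and several BH3-only proteins and is known as a short-lived protein, measured 189 and 209 FPKM in NT cells, 158 and 110 in NT + TPL cells, 222 and 213 in TAM cells and 128 and 117 in TAM + TPL cells. The 4 TPL libraries lay below the 4 DMSO libraries, as for 21% of all genes. The log2 fold change of MCL1 with TPL was -0.57 (SE 0.186, adjusted p = 0.0502) in NT cells and -0.81 (SE 0.187, adjusted p = 0.0171) in TAM cells, by edgeR's test. Neither is a call, and in TAM cells the value passes the looser threshold. MCL1 remained the most abundant member with TPL, at 134 ± 34.2 and 122 ± 7.73 FPKM (SD, n = 2 each).
BCL2L2, whose product BCL-w resembles BCL-xL, measured 4.86 and 6.66 FPKM in NT cells, 5.61 and 3.93 in NT + TPL cells, 4.05 and 4.26 in TAM cells and 3.48 and 4.35 in TAM + TPL cells. Its libraries overlapped between all pairs of groups that differ by TPL, and the log2 fold change was -0.29 (95% confidence interval -0.88 to 0.30) in NT and -0.13 (-0.73 to 0.46) in TAM cells. A read-through transcript that joins BCL2L2 to its neighbour PABPN1 has an entry of its own at between 39.9 and 75.1 FPKM, and the reads that both share cannot be told apart, which leaves the level of BCL2L2 uncertain.

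The entry of BCL2L1 that carries its gene ID held a small part of the gene's reads. BCL2L1 codes for BCL-xL, the anti-apoptotic protein that guards BAX and BAK alongside MCL1. There it measured 5.6 and 15.3 FPKM in NT cells, 0 and 4.54 in NT + TPL cells, 9.41 and 4.89 in TAM cells and 1.17 and 1.90 in TAM + TPL cells, and the replicates of a group differed as widely as the groups. At that entry the log2 fold change with TPL came to -2.24 in both NT (SE 1.31, adjusted p = 0.215) and TAM cells (SE 1.34, adjusted p = 0.233) by edgeR's test. The tables list 4 more entries of BCL2L1 by transcript accession, and these held between 60.3 and 100% of its expected counts, depending on the library. A single transcript, NM_001317920, held between 60.3 and 85.9%.
Summed over the 5 entries, BCL2L1 measured 74.4 and 72.3 FPKM in NT cells, 20.6 and 11.95 in NT + TPL cells, 73.1 and 69.0 in TAM cells and 14.6 and 12.6 in TAM + TPL cells. Apart from NT + TPL, whose SD was 6.09 on a mean of 16.3 FPKM, the replicates then lay close together. The DMSO libraries of both kinds of cells stood at the same height, and all 4 TPL libraries stood far below them. The sum placed BCL2L1 second after MCL1 in NT cells, at 73.3 ± 1.47 FPKM (SD, n = 2). A fit in which all entries of the same gene were summed, chosen after the data were seen, tested 15754 genes and called BCL2L1 lower with TPL in both kinds of cells. The fall was 4.53-fold in NT (log2 fold change -2.18, SE 0.221, adjusted p = 2.21e-05) and 5.35-fold in TAM cells (-2.42, SE 0.224, adjusted p = 1.44e-05). In that fit 8.4% of all genes were called lower in NT and 7.31% in TAM cells, against 4.32 and 3.95% called higher. Among the 10 members that fit called PMAIP1 and BCL2L11 higher and BCL2L1 and BAK1 lower in NT cells, and PMAIP1 higher and the same pair lower in TAM cells. The ratio of MCL1 to summed BCL2L1, both in FPKM, was between 2.55 and 3.09 in the 4 DMSO libraries and between 7.68 and 9.26 in the 4 TPL libraries.

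**Figure D3:**
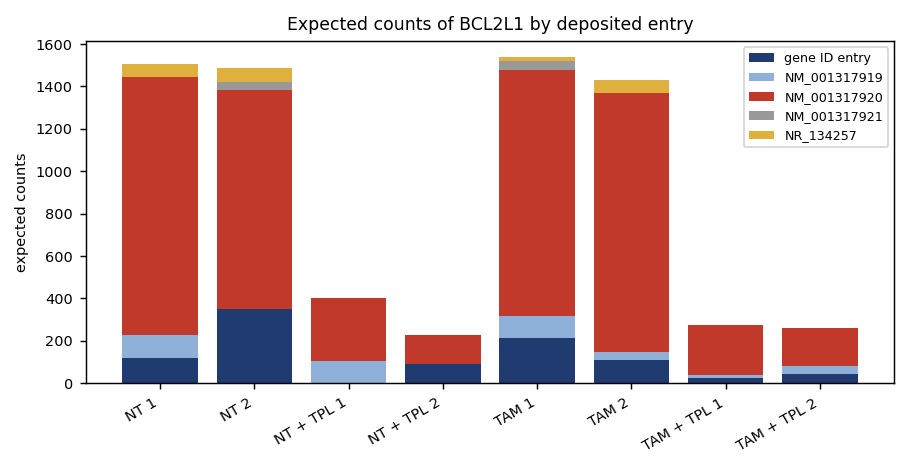
Expected counts (y axis, linear from 0) of BCL2L1 in each of the 8 libraries, stacked by deposited entry: the entry under its gene ID and 4 entries under transcript accessions. The stacks reach between 1430 and 1539 counts with DMSO and between 229 and 402 with TPL, and NM_001317920 is the tallest part of each.

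The effectors BAX and BAK1 gave unlike values. BAK, the effector that sits in the mitochondrial membrane, is coded by BAK1, which measured 22.2 and 19.3 FPKM in NT cells, 7.55 and 5.08 in NT + TPL cells, 19.3 and 19.9 in TAM cells and 7.92 and 8.71 in TAM + TPL cells. The TPL libraries lay below the DMSO libraries by a wide gap in both kinds of cells. The log2 fold change of BAK1 was -1.73 in NT (SE 0.198, 3.31-fold lower, adjusted p = 0.00116) and -1.28 in TAM cells (SE 0.194, 2.44-fold lower, adjusted p = 0.00365), which misses the call by the p alone. BAK1 was called lower in both kinds of cells with all entries of a gene summed (adjusted p = 7.21e-05 in NT and 0.00052 in TAM), although it has a single entry itself.
BAX, which moves from the cytosol to the mitochondrion when activated, measured 53.8 and 41.2 FPKM in NT cells, 30 and 46.3 in NT + TPL cells, 51.0 and 65.3 in TAM cells and 32.1 and 35.2 in TAM + TPL cells. Its NT and NT + TPL libraries overlapped, and its TAM + TPL libraries lay below its TAM libraries. BAX gave a log2 fold change of -0.29 with TPL in NT cells (SE 0.262, adjusted p = 0.41), and one of -0.79 for TAM cells (SE 0.263, adjusted p = 0.0577).

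Of the 5 BH3-only members, PMAIP1 rose with TPL in both kinds of cells, and the other 4 were not called in the fit of 16948 genes. NOXA, the product of PMAIP1, binds MCL1 in preference to BCL-xL. PMAIP1 measured 7.69 and 7.77 FPKM in NT cells, 55.0 and 60.4 in NT + TPL cells, 20.3 and 22.2 in TAM cells and 57.6 and 61.6 in TAM + TPL cells. The replicates lay close together, TAM stood between NT and the TPL groups, and the TPL groups of NT and TAM cells stood at the same height. The rise was 7.44-fold in NT (log2 fold change 2.89, SE 0.148, adjusted p = 0.000192) and 2.72-fold in TAM cells (1.44, SE 0.138, adjusted p = 0.000736). The calls are close to the threshold of p. With a library left out, the log2 fold change of NT cells stayed between 2.80 and 2.99 and that of TAM cells between 1.36 and 1.5, and the adjusted p lay between 0.000717 and 0.00276 and between 0.000685 and 0.0116, respectively. They were lost without any of the NT, TAM or TAM + TPL libraries and kept without either NT + TPL library.
The ratio of MCL1 to PMAIP1 in FPKM was 24.6 and 26.9 in NT, 11.0 and 9.59 in TAM, 2.87 and 1.82 in NT + TPL, and 2.22 and 1.90 in TAM + TPL cells.

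BIM, the product of BCL2L11, binds all anti-apoptotic members and can activate BAX and BAK. BCL2L11 measured 7.08 and 9.14 FPKM in NT cells, 23.7 and 18.2 in NT + TPL cells, 15.7 and 14.3 in TAM cells and 19.8 and 21.3 in TAM + TPL cells. The 4 TPL libraries lay above the 4 DMSO libraries, as for 21% of all genes, and the gap was narrow in TAM cells. With TPL BCL2L11 gave a log2 fold change of 1.41 in NT cells (SE 0.179, 2.65-fold, adjusted p = 0.0017), against 0.32 for TAM cells (SE 0.174, adjusted p = 0.193). In NT cells it misses the call by the p. It was called there with all entries of a gene summed (adjusted p = 0.000146). DESeq2 called it in NT cells as well (log2 fold change 1.42, adjusted p = 1.76e-12), where it called 2506 genes in either direction.
BAD, which blocks BCL-xL until it is phosphorylated, was at 43.5 and 33.4 FPKM in NT cells, 55.5 and 55.7 in NT + TPL cells, 26.0 and 23.6 in TAM cells and 17.7 and 16.5 in TAM + TPL cells. Its TPL libraries lay above the DMSO libraries in NT cells and below them in TAM cells. With TPL the log2 fold change of BAD was 0.51 for NT cells (SE 0.171, adjusted p = 0.0523), whereas TAM cells gave -0.58 (SE 0.177, adjusted p = 0.0443), neither of which is a call.
BID, which caspase-8 cleaves to link death receptors to the mitochondrion, measured 12.9 and 11.8 FPKM in NT cells, 7.82 and 9.81 in NT + TPL cells, 8.03 and 7.01 in TAM cells and 5.89 and 5.94 in TAM + TPL cells. Both TPL groups of BID lay below their DMSO groups, with log2 fold changes of -0.50 (SE 0.198, adjusted p = 0.0906) and -0.34 (SE 0.202, adjusted p = 0.235).
BBC3 codes for PUMA, a well-known target of p53. It was the weakest member, at 2.95 and 1.73 FPKM in NT cells, 1.06 and 0.86 in NT + TPL cells, 1.36 and 1.73 in TAM cells and 0.36 and 0.93 in TAM + TPL cells. These rest on between 5 and 37 counts in a library, and although the TPL libraries were lower in both kinds of cells, the log2 fold changes of -1.30 (SE 0.552, adjusted p = 0.105) and -1.15 (SE 0.561, adjusted p = 0.156) did not pass the test.
Counted together in FPKM, with BCL2L1 summed, the BH3-only members made up between 15.5 and 17.7% of the family's level in the DMSO libraries and between 35.3 and 45.0% in the TPL libraries. The anti-apoptotic members made up between 64.1 and 69.8% with DMSO and between 39.0 and 50.8% with TPL, and the effectors between 14.7 and 19.4% and between 10.3 and 16%. PMAIP1 alone went from between 1.84 and 5.04% to between 15.1 and 21.7%.

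To see whether transformation itself changed the family, TAM cells were compared with NT cells. With DMSO, 0 of the 10 members were called in either direction (0.378% of all genes were called higher and 0.277% lower by edgeR's test). At an unadjusted p under 0.05, PMAIP1 and BCL2L11 were higher (9.51% of all genes) and BID and BAD lower (10.4%) in TAM cells. DESeq2 called 1 member, PMAIP1, where it called 732 genes in either direction. The members that passed an adjusted p of 0.05 were PMAIP1, at a log2 difference of 1.47 (SE 0.145, adjusted p = 0.00187), and BCL2L11, at 0.95 (SE 0.178, adjusted p = 0.024), where 3.46% of all genes were higher by that rule. With all entries of a gene summed, PMAIP1 was called higher in TAM cells (adjusted p = 0.000198, 1.47% of all genes). BID gave -0.72 (SE 0.199, adjusted p = 0.088) and BAD -0.62 (SE 0.173, adjusted p = 0.0913). With the entries of BCL2L1 summed its log2 fold change was -0.04 (95% confidence interval -0.50 to 0.41), and that of MCL1 was 0.13 (-0.31 to 0.57).
With TPL on both sides, 0 members were called between TAM and NT cells by edgeR's test (0.36% of all genes were called higher and 0.236% lower). DESeq2 called 1, BAD, where it called 666 genes in either direction. BAD gave -1.72 on the log2 scale in TAM + TPL against NT + TPL cells (SE 0.178, adjusted p = 0.00257), the single member at an adjusted p of 0.05 (4.21% of all genes were lower by that rule). At an unadjusted p under 0.05 BID was lower too (12.2%) and 0 members were higher (9.12%). With all entries of a gene summed, BAD was called lower in TAM + TPL cells (1.49% of all genes). PMAIP1 differed by 0.02 (95% confidence interval -0.30 to 0.34) and BCL2L11 by -0.13 (-0.54 to 0.28). These comparisons share libraries with those of TPL against DMSO, so they are not independent of them.

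Whether TPL acted differently in TAM and NT cells was tested with the interaction term of the same fit. The test called 0 members and 0 of all 16948 genes (0% in either direction). At an unadjusted p under 0.05 there were 3 members, PMAIP1, BAD and BCL2L11, all lower (5.59% of all genes, against 5.03% higher). DESeq2 called PMAIP1 alone among the members, where it called 144 genes in either direction. The log2 fold change of PMAIP1 with TPL was smaller in TAM than in NT cells by 1.45 (interaction -1.45, SE 0.197, adjusted p = 0.0589). The adjusted p of that difference depends on the processing, at 0.0186 with all entries of a gene summed, 1.53e-07 with DESeq2 and up to 0.27 with a library left out. For BAD the interaction was -1.09 (SE 0.246, adjusted p = 0.205) and for BCL2L11 it was -1.08 (SE 0.248, adjusted p = 0.209). These also depend on the processing. DESeq2 gave -1.08 for each, with adjusted p = 0.0132 for BAD and 0.00357 for BCL2L11, and called neither. With all entries of a gene summed, edgeR's test gave adjusted p = 0.108 and 0.0941. The interactions of MCL1 (-0.24, 95% confidence interval -0.87 to 0.38), BAK1 (0.44, -0.20 to 1.09) and BCL2L1 with its entries summed (-0.24, adjusted p = 0.793) did not pass an unadjusted p of 0.05.

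For the members whose pattern over the 8 libraries was described by likeness, the measure was the root mean square difference of centred log2 counts scaled to library size, over 8545 genes with a mean of at least 5 FPKM. The genes nearest to PMAIP1 were KHDRBS3, an RNA-binding protein, GCH1, the first enzyme of tetrahydrobiopterin synthesis, and LGMN, a lysosomal protease, with differences of 0.134, 0.217 and 0.272 where PMAIP1 itself varied by 1.2. KHDRBS3 measured 2.13 and 2.69 FPKM in NT cells, 18.3 and 18.2 in NT + TPL cells, 7.28 and 6.81 in TAM cells and 22.1 and 21.1 in TAM + TPL cells. As for PMAIP1, NT was lowest and TAM lay between NT and the TPL groups, a likeness for which the gene was picked. The TPL groups of KHDRBS3 stood apart, whereas those of PMAIP1 overlapped. Nearest to MCL1 were PIP4K2B, ABL1 and ARL2BP, with differences of 0.0712, 0.08 and 0.0852 where MCL1 varied by 0.382. Nearest to BBC3 were MRPS28, TIMM8A and EMC8, at 0.223 to 0.231 where BBC3 varied by 0.688.

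RNAPII was found by ChIP-Seq over the main TSS of most members in all 4 conditions. The main TSS is that of the Ensembl canonical transcript. It lay within a listed peak for 9 of the 10 members in NT cells (63.3% of 15037 genes), and for 8 in each of NT + TPL cells (50.5%), TAM cells (55.7%) and TAM + TPL cells (49.6%). The TSS of BID lay in a peak in NT cells only, chr22:18257127-18257360, and was among the 23.2% of occupied TSSs that left the list with TPL. The main TSS of BBC3 lay in no peak of any list, while another annotated TSS of BBC3 lay in a peak in the NT and TAM lists and in neither TPL list. The lists give starts and ends of peaks with no height, and each condition has a single list. The names in the TAM list show another peak threshold than those of the other 3 lists. In any presence or width of a peak set against TAM, the threshold and the treatment therefore cannot be told apart. No test was possible, and the widths are a description.

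Counted in bp, the peak of MCL1 changed most, while by the ratio of widths that of BCL2L1 changed more in NT cells. MCL1 lies on the minus strand at chr1:150547034-150552086, and its peak covered 13111 bp in NT cells, from 474 bp before the TSS to 12636 bp after it, past the end of the gene. In NT + TPL cells it covered 2311 bp and ended 1507 bp after the TSS. In TAM cells it covered 13625 bp and in TAM + TPL cells 7322 bp, ending 13207 and 6619 bp after the TSS. In TAM cells the ratio of widths of MCL1, 0.537, was lower than that of 89.2% of the 6790 TSSs with a peak in both lists. In NT cells its ratio, 0.176, was lower than that of 97.4% of the 7314 TSSs with a peak in both lists.
At BCL2L1 the peak went from 1672 to 213 bp in NT cells, a ratio of 0.127 that was lower than that of 98.7% of these TSSs, and it measured 1235 bp in TAM and 1228 bp in TAM + TPL cells. The peak of PMAIP1 was wider with TPL, at 923 bp in NT and 1289 bp in NT + TPL cells, and 928 bp in TAM and 1699 bp in TAM + TPL cells. Downstream of the TSS, towards its gene body at chr18:57567228-57571537 on the plus strand, the PMAIP1 peak reached 435 bp in NT, 772 bp in NT + TPL, 355 bp in TAM and 1460 bp in TAM + TPL cells. The ratio of widths was higher than that of 86.0% of TSSs in NT and 87.1% in TAM cells.
The widths of the other members with a peak in both lists are given for NT and then for TAM cells. BAK1 went from 572 to 359 bp with TPL in NT cells and from 180 to 234 bp in TAM cells, BAD from 1592 to 589 bp and from 440 to 425 bp, BCL2L2 from 731 to 541 bp and from 608 to 425 bp, BAX from 722 to 653 bp and from 741 to 597 bp, and BCL2L11 from 591 to 527 bp and from 814 to 829 bp. Of the 8 members with a peak in both lists, 7 were narrower with TPL in NT cells, where 63.0% of all such TSSs were, and 5 of 8 in TAM cells, where 44.9% were.

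**Figure D4:**
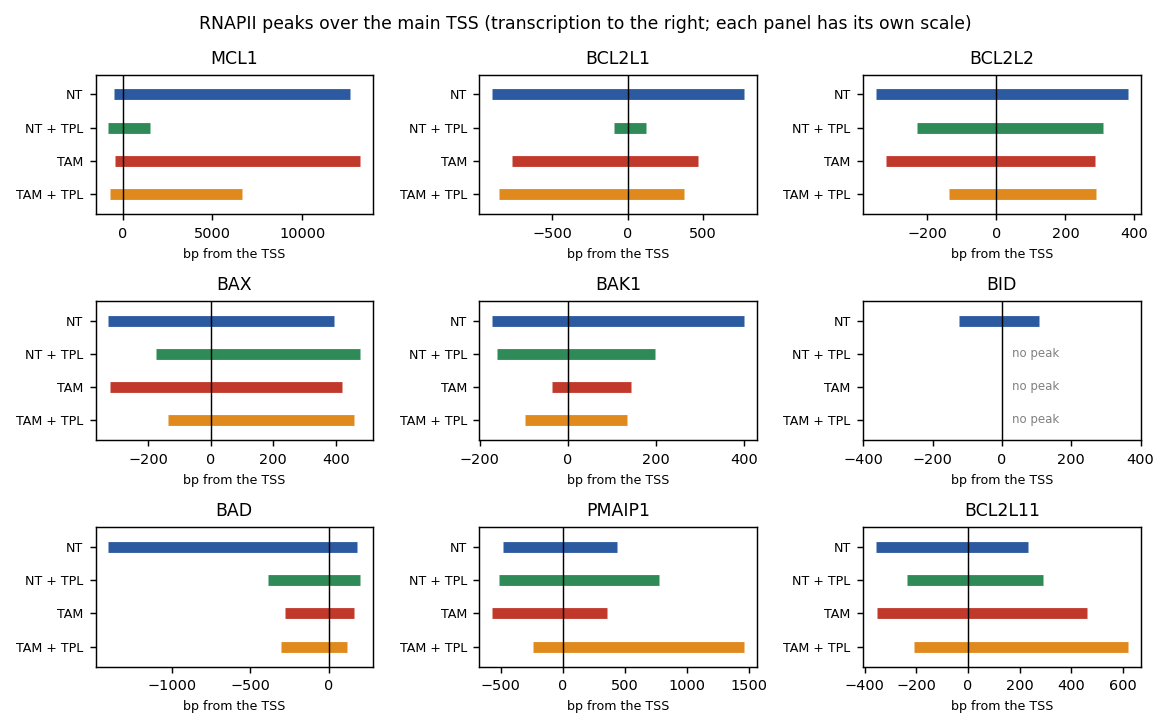
Extent of the RNAPII peak over the main TSS of 9 members (x axis, bp from the TSS at 0, with transcription to the right and a scale that differs between panels) in the 4 peak lists. The MCL1 peak reaches 12636 bp after the TSS in NT and 1507 bp in NT + TPL cells, and the PMAIP1 peak reaches 355 bp in TAM and 1460 bp in TAM + TPL cells; BBC3 has no peak at its main TSS and is not drawn.

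The other genes of the apoptosis pathway were taken as 6 lists of 45 genes, of which 43 passed the filter on low counts. In NT cells with TPL the calls were BCL2L12, which was higher (1.22% of all genes were), and BOK and CASP2, which were lower (2.71%), and at an adjusted p of 0.05 12 of the 43 were higher (17.2% of all genes) and 6 lower (19.8%). In TAM cells with TPL the calls were CASP2 and TNFRSF1A, both lower (2.04% of all genes), and at an adjusted p of 0.05 7 were higher (14.3%) and 8 lower (18.6%). Over the 43 the median log2 fold change with TPL was 0.0032 for NT and -0.031 for TAM cells.
Among 12 further genes of the BCL2 family, 10 of which were tested, BCL2L12 was called higher in NT + TPL cells (log2 fold change 1.78, SE 0.178, adjusted p = 0.000753) and gave 0.89 in TAM + TPL cells (adjusted p = 0.00909). BOK, an effector relative of BAX and BAK, was called lower in NT + TPL cells, from 22.2 and 23.8 to 4.81 and 4.04 FPKM (-2.38, SE 0.26, adjusted p = 0.00099), and gave -2.36 (adjusted p = 0.00125) in TAM + TPL cells. BCL2L13 gave 0.54 (adjusted p = 0.0237) and 0.44 (adjusted p = 0.0476).
Of the 6 further caspases CASP2, an initiator caspase linked to DNA damage, was called lower in both kinds of cells. It measured 18.1 and 18.0 FPKM in NT cells, 6.17 and 4.51 in NT + TPL cells, 23.7 and 24.3 in TAM cells and 5.63 and 5.66 in TAM + TPL cells, with log2 fold changes of -1.76 (adjusted p = 0.000524) and -2.13 (adjusted p = 0.000385).
Of the 9 genes of the death receptor pathway, TNFRSF1A, the main TNF receptor, fell from 91.5 and 78.8 FPKM in TAM cells to 10.6 and 12.4 in TAM + TPL cells (-2.94, SE 0.237, adjusted p = 0.000449), and gave -1.87 (adjusted p = 0.00147) in NT cells. The adaptor FADD gave -1.75 and -1.42 (adjusted p = 0.00211 and 0.00492), and the kinase RIPK1 gave 0.89 and 1.0 (adjusted p = 0.00287 and 0.00201). RIPK1 has 2 entries, and with these summed it gave 0.62 in both kinds of cells (adjusted p = 0.0106 and 0.0112 by edgeR's test). FAS has 4 entries, and with these summed it was called lower in both kinds of cells (-1.45 and -1.74, adjusted p = 0.000116 and 3.5e-05). FAS was named after its values were seen, because of its entries.
The 9 genes of the apoptosome and of mitochondrial release had no call. HTRA2, a protease released from mitochondria, gave -1.51 and -1.09 (adjusted p = 0.00197 and 0.00713), DIABLO, which blocks inhibitors of apoptosis, gave 0.80 and 0.65 (adjusted p = 0.0262 and 0.0568), and APAF1, the scaffold of the apoptosome, gave 0.63 and 0.24 (adjusted p = 0.0374 and 0.344). The 5 inhibitors of apoptosis had none either. BIRC3 gave -0.84 and -1.35 (adjusted p = 0.0137 and 0.00282), and BIRC5 (survivin) gave 1.76 and 0.39 (adjusted p = 0.00498 and 0.297). The 4 genes that add or remove ubiquitin on MCL1, HUWE1, FBXW7, BTRC and USP9X, did not pass an adjusted p of 0.05 in either kind of cell.

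**Figure D5:**
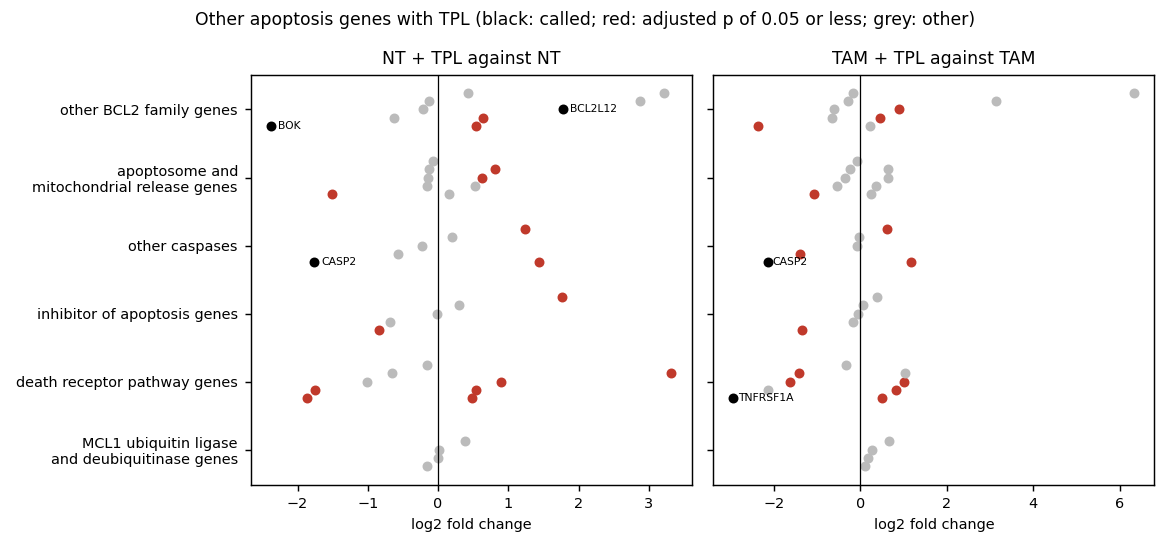
Fitted log2 fold change with TPL (x axes, whose ranges differ) of each tested gene of 6 apoptosis lists, in NT cells (left) and TAM cells (right), with called genes in black and named, other genes at an adjusted p of 0.05 or less in red, and the rest in grey. Vertical shifts within a list only separate the points. BOK and CASP2 lie at -2.38 and -1.76 in NT cells, and TNFRSF1A lies at -2.94 in TAM cells.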

How the data were processed

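Expected counts (reads per gene estimated by RSEM) and FPKM values come from the authors, who used poly-A RNA, Bowtie2 alignment to transcripts and RSEM; both were deposited per library, and genes without a read were taken as 0. TPL was given at 125 nM. The authors aligned ChIP reads to hg19 and called RNAPII peaks with MACS over input; the deposited lists are coordinates of peaks that hold a TSS. Symbols were found for all but 120 of 23604 entries, through gene IDs or RefSeq accessions. Rounded expected counts were scaled by TMM, filtered with filterByExpr and fitted in edgeR 4.0.16 (R 4.3.3). SEs and intervals come from the quasi-likelihood F, with about 6.98 degrees of freedom, and rest on 2 libraries per group. The script was tested on simulated data. TSSs came from GENCODE release 44 on build 37 and promoter sequence from the GRCh37 genome; symbols came from RefSeq. Alternatives were DESeq2 1.42.0, other scalings, filters and thresholds, a replicate block, 2-group fits, limma 3.58.1 on log2 FPKM, each library left out, and, added after seeing the data, entries of the same gene summed. Named were all 10 members, up to 3 genes per list by smallest adjusted p with TPL at 0.05 or less, and the 3 genes most like MCL1, BBC3 and PMAIP1. The members and lists were chosen with earlier results of these data known. Replicate ChIP signal was not used here. Some genes that the naming rule picked are not reported here.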

Additional observations from a re-analysis of the deposited data

Results flagged for a closer look

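BAD was flagged because its TPL libraries lay on opposite sides of the DMSO libraries in NT and TAM cells, above them in NT and below them in TAM cells. Of all genes, 36.4% lay above in NT cells and 34.7% lay below in TAM cells. The share with both was not counted, so how unusual the pattern is was not measured. The log2 fold changes of BAD differed by -1.09 (SE 0.246), with an adjusted p = 0.205 by edgeR's interaction test, so the difference did not pass that test. With DESeq2 the difference was -1.08 with an adjusted p = 0.0132, which is no call. BCL2L1 stood out because most of its reads lie in entries that the gene ID does not reach, between 60.3 and 100% of its expected counts in a library.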

How the results depend on the processing

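Calls among the 10 members depended on the processing. So did those among all genes. With TPL in NT cells 666 genes were called, against 2506 with DESeq2, 1435 with a filter of 10 counts and 2004 with entries summed. Upper quartile scaling called 570, equal GAPDH 667, no filter 913, an adjusted p of 0.05 6274 and a fit over the 2 groups 0. With TPL in TAM cells 488 were called, against 2252 with DESeq2 and 1774 with entries summed. Equal GAPDH called 284 there, an adjusted p of 0.05 5590 and a fit over the 2 groups 277. Calls among the 10 members follow. With TPL in NT cells (1 call) they numbered 3 with DESeq2, 2 with upper quartile scaling, 2 with equal GAPDH, 2 with no filter, 3 with a filter of 10 counts per library, 3 at an adjusted p of 0.05, 0 in a fit over the 2 groups, 4 with entries summed and 0 to 1 with a library left out. With TPL in TAM cells (1 call) they numbered 2 with DESeq2, 0 with equal GAPDH, 4 at an adjusted p of 0.05, 0 in a fit over the 2 groups, 3 with entries summed and 0 to 1 with a library left out. Between TAM and NT cells with DMSO (0 calls), DESeq2, the filter of 10 counts, limma on log2(FPKM + 1) and on log2(FPKM + 0.1), and summed entries gave 1 each, and an adjusted p of 0.05 gave 2. Of all genes the main fit called 111 there, and these settings called 732, 323, 170, 138, 464 and 1160 in that order. Between TAM and NT cells with TPL (0 calls), DESeq2, the filter of 10 counts, the adjusted p of 0.05 and summed entries gave 1 each. Of all genes the main fit called 101 there, and these settings called 666, 272, 1192 and 409. For the interaction (0 calls) DESeq2 gave 1, and of all genes it called 144 where the main fit called 0. With peaks of at least 500 bp, 5 members were occupied in TAM + TPL cells in place of 8. The same limit also took members off the other lists, BID off that of NT, BCL2L1 and BAK1 off that of NT + TPL, and BAK1 and BAD off that of TAM cells. Apart from the fewer samples or other thresholds that some settings use by construction, the cause was not tested.
With the replicate block 0 members and 0 of all genes were called for TPL in either kind of cell. Over all genes tested, same-numbered libraries did not deviate together (correlations between -0.135 and 0.0501). Such correlations cannot show whether these libraries were prepared together, which was not tested. The block moved the interaction of BCL2L1 to -0.018.
Equal GAPDH moved the median of all genes to -0.26 for TPL in NT, -0.07 in TAM and -0.50 for TAM against NT cells, and upper quartile scaling moved it to 0.31 for TPL in NT cells. Some signs changed. Under upper quartile scaling BCL2L2 with TPL in TAM cells did so (0.11). With equal GAPDH, MCL1 and BAX did so for TAM against NT with DMSO (-0.35 and -0.19). The same scaling changed PMAIP1 for TAM against NT with TPL (-0.21) and the interaction of MCL1 (0.017). With limma, BCL2L1 for TAM against NT with TPL went to 0.092 and 1.23, from -0.58 (SE 1.35) in the main fit. Limma also changed the interaction of BBC3 (-0.085), and summed entries that of BCL2L1 (-0.24). With a library left out, the log2 fold changes that changed sign ranged, with TPL, from -0.68 to 0.019 for BAX in NT and from -0.29 to 0.015 for BCL2L2 in TAM cells. For TAM against NT with DMSO they ranged from -1.16 to 0.38 for BCL2L1 and from -0.16 to 0.034 for BAK1. With TPL they ranged from -0.33 to 0.21 for MCL1, -1.54 to 8.07 for BCL2L1, -0.51 to 0.19 for BAX, -1.21 to 0.12 for BBC3, -0.045 to 0.14 for PMAIP1 and -0.28 to 0.094 for BCL2L11. For the interaction they ranged from -0.50 to 0.049 for MCL1, -1.0 to 8.62 for BCL2L1, -0.088 to 0.40 for BCL2L2, -0.020 to 0.37 for BID and -0.66 to 0.66 for BBC3. Of 1030 values of single members under an alternative, 952 kept their sign and their side of the threshold. Most of them were not called in the main fit, so this number says little about the calls. Only PMAIP1 with TPL had calls to lose, and 17 of its values under an alternative lost the call.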
